A study of Mus musculus with 2 samples.

Results

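The Hox genes of 1 mouse expression series were described here across their A, B, C and D clusters. They were chosen by symbol: a probeset, the unit of an Affymetrix array that covers a short stretch of a transcript, belonged to a Hox gene if the annotation named it with that gene's symbol and no other. Of 38 listed symbols, 37 had such probesets, 221 in all, among 21947 genes named on the array. Hoxd4 had none, because the probesets that name it also name Hoxd3. The cells derived from Bry-GFP, a line of mouse embryonic stem cells with GFP placed under the mesoderm gene Brachyury. Mesoderm cells positive for FLK1 were taken from embryoid bodies on day 3. They were then kept in the solvent DMSO, or in compound B, which the labels name as an inhibitor of LSD1, at 300 nM. LSD1 is the histone demethylase encoded by Kdm1a. After 2 days of culture the cells positive for CD41, an integrin of early blood cells, were sorted from each culture, and their RNA was hybridised to 1 array per condition. By their label the cells are hemogenic endothelium, a type of vessel lining from which blood cells emerge.

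Hox genes encode transcription factors that bind DNA through a homeodomain. They lie in clusters in which the paralog number follows the order along the chromosome, and genes with low numbers are as a rule switched on earlier and further toward the head than genes with high numbers. Trithorax proteins such as the methyltransferase MLL, encoded by Kmt2a, keep Hox genes active, Polycomb proteins keep them silent, and retinoic acid induces genes at the low-numbered end. In blood, Hoxa9, Hoxa10 and Hoxb4 are known from stem and progenitor cells, where the cofactors Meis1 and Pbx bind DNA together with Hox proteins.

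With 1 array per condition there was no replicate. Every difference below describes these 2 arrays and is a value with no test, and its precision is limited by the number of arrays. In these bulk cells, fewer expressing cells and less RNA per cell cannot be told apart. Values are on a scale read as log2 intensity. A probeset was called bright if the higher of its 2 values reached the median of the whole table, 3.17, and a gene with 4 or more such probesets was called measured. The level of a gene is the median of its bright probesets in an array. Its difference is the median of their differences, inhibitor minus DMSO, so it can deviate from the gap between levels. The SD beside a difference is taken over probesets within the gene and is no replicate error. The size rule asked for 2-fold, a difference of 1 or more in log2, with 75% or more of the bright probesets on that side. Levels of different genes come from different probes and are not ranked.

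The genes listed for the label of the sorted cells gave signal in both arrays, which alone does not tell the cell type. All 12 genes of the list for hemogenic endothelium and CD41-positive cells were measured. Their levels ran from 4.87 to 8.44 with DMSO and from 5.995 to 9.93 with the inhibitor. By the same rule, 10 of 10 smooth muscle and mesenchyme genes and 7 of 10 neural genes were measured. Of the 12, 4 were past the size rule upward and none downward, namely Gfi1, Gfi1b, Cdh5 and Gata2. The median of the 12 was 0.85, and 8 lay above 0. Others went down short of the rule: Kit was at -0.66 (20 of 22 probesets lower), Cd34 at -0.53 (10 of 12) and Tal1 at -0.46 (9 of 9). Itga2b, which encodes CD41, differed by -0.12. Among all 15087 measured genes, 1.72% were past the size rule upward and 0.563% downward. Of 9 measured erythroid genes, 6 were past it downward and none upward, with a median of -1.15. The part of such shifts in the Hox differences was not tested. No gene of the neural list (7 measured, median 0.11) or of the paraxial and limb mesoderm list (7 measured, median -0.16), tissues with strong Hox expression, was past the rule. Single genes of both lists still differed. Tubb3 was at 0.95 (7 of 8 probesets higher) and Nes at 0.61 (20 of 21), with 5 of the 7 neural genes above 0. Tbx6 was at 0.66 (5 of 8 higher) and Meox1 at -0.51 (3 of 4 lower), with 2 of the 7 paraxial and limb genes above 0. The smooth muscle and mesenchyme list had 2 of 10 past it downward (median -0.37), and the myeloid list had 1 of 8 upward (median 0.11).

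Most Hox genes were close between the arrays, and the larger differences upward lay in the HoxD and HoxB clusters. Of 38 listed Hox genes, 19 were measured. Hoxd9 was past the size rule upward and no Hox gene was past it downward, against 1.72% of all 15087 measured genes upward and 0.563% downward. The median difference of the 19 was 0.11, beside 0.06 for all measured genes. Of the 19, 14 lay above 0 and 5 below, against 59% of all measured genes above 0 and 40.9% below. With a level-dependent trend removed, 12 of the 19 (63.2%) lay above 0, beside 48.9% of all measured genes. The central 90% of all measured genes ran from -0.50 to 0.68, and only Hoxd9 among the measured Hox genes lay above that range and only Hoxa10 below it. In 15 of the 19 the difference was smaller than 0.5 in size. In 5 of the 19, all bright probesets were bright in both arrays. In the others, at least 1 counted as bright through 1 array alone, and differences without such probesets were not computed.

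**Figure D1:**
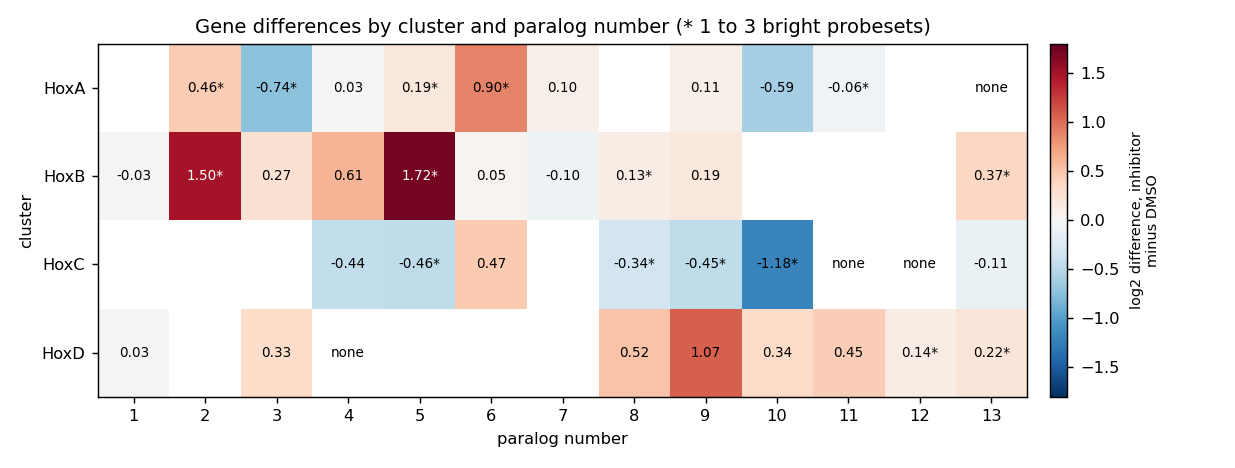
The grid gives each Hox gene's log2 difference, inhibitor minus DMSO, by cluster (rows) and paralog number (columns), with red for higher and blue for lower in the inhibitor array. An asterisk marks genes with 1 to 3 bright probesets, "none" marks genes with no bright probeset of their own, and blank cells hold no listed gene. The HoxD row has no value below 0 (Hoxd1 was at -0.04 with a level-dependent trend removed), and in the HoxC row Hoxc6, at 0.47, is the only value above 0. Of the 4 bright probesets of Hoxc6, only 2 were bright in both arrays.

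The clusters differed in how much signal their probesets gave. Of the HoxD probesets, 48 of 56 (85.7%) were bright, and of the HoxB probesets 50 of 61 (82.0%), beside 77.2% of all probesets with 1 gene. The share was 33 of 58 (56.9%) in HoxA and 20 of 46 (43.5%) in HoxC. Among the bright probesets, 36 of 48 in HoxD and 32 of 50 in HoxB had the higher value in the inhibitor array, which is 75% and 64.0%, beside 54.7% of all bright probesets. In HoxA 18 of 33 and in HoxC 5 of 20 did so (54.5% and 25%). Probesets of 1 gene share their RNA and are not replicates. The median gene difference was 0.39 over 6 measured HoxD genes, 0.12 over 6 HoxB genes, 0.06 over 4 HoxA genes and -0.11 over 3 HoxC genes. With a level-dependent trend removed, the HoxA median was -0.0047. With no filter on dim probesets the medians were 0.33 in HoxD, 0.24 in HoxB, 0.02 in HoxA and -0.23 in HoxC, and with at least 1 bright probeset the HoxB median was 0.23 and the HoxC median -0.44. With the mean over probesets HoxA was at 0.17 and HoxB at 0.05, so the order of these clusters turned. With odd-ranked probesets HoxD was at 0.58 and HoxB at 0.22. With a filter at the table's 75th percentile HoxD was at 0.28, HoxB at 0.21 and HoxA at 0.10.

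HoxD held the Hox gene past the size rule, Hoxd9, and its neighbours on the chromosome. Hoxd9, a gene of the posterior part of the cluster known from limb and trunk patterning, had 10 bright probesets, with values from 3.14 to 10.28 in the DMSO array and from 4.09 to 10.95 in the inhibitor array. Its probesets in order of brightness gave 10.28 and 10.95, 8.28 and 9.11, 7.57 and 8.94, 6.87 and 8.18, 5.26 and 6.60, 5.05 and 5.76, 3.79 and 5.59, 4.20 and 4.09, 3.67 and 4.38, and 3.14 and 4.91, DMSO first in each pair. The inhibitor value was the higher one in 9 of the 10, the brightest ones included. Its level was 5.16 with DMSO and 6.18 with the inhibitor, and its difference was 1.07 (2.10-fold, SD 0.59 over probesets). The difference lay at the edge of the rule: it was 0.9997 with a level-dependent trend removed and 0.83 with odd-ranked probesets alone, and neither passed.

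Hoxd8, next to Hoxd9, was higher in the inhibitor array in 6 of 6 probesets without reaching 2-fold. Its pairs were 8.81 and 9.33, 6.29 and 6.80, 5.78 and 6.02, 5.68 and 6.11, 3.74 and 5.32, and 3.29 and 5.04, so the dimmest probesets, the last pairs, had the widest gaps. Its difference was 0.52 (SD 0.65). Hoxd10, on the other side of Hoxd9, gave 5.44 and 5.84, 5.31 and 5.57, 4.04 and 5.90, and 3.52 and 3.62. All 4 of its probesets were higher with the inhibitor, yet 1 of them was far apart from the rest at 1.85, and the difference was 0.34 (SD 0.81). Over Hoxd8, Hoxd9 and Hoxd10 together, a group put together after the values were seen, 19 of 20 bright probesets were higher in the inhibitor array, with a median of 0.71.

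Further along, Hoxd11 did not share this. It had 15 probesets, 10 of them bright, of which 6 were higher and 4 lower with the inhibitor, from -0.71 to 2.19. Its dimmest bright probesets, 2.92 and 3.83, and 1.52 and 3.71, were bright in the inhibitor array alone. Its difference of 0.45 (SD 0.89, levels 4.58 and 4.64) was -0.33 with even-ranked probesets alone and -0.0088 with a filter at the table's 75th percentile. At the low-numbered end, Hoxd3 differed by 0.33 (SD 0.65, levels 4.93 and 5.02), with 6 of 9 bright probesets higher. Hoxd1, the HoxD gene with the smallest difference, had 3 probesets higher and 3 lower, a difference of 0.03 (SD 0.78) and levels of 6.45 and 6.23. Its difference was -0.04 with the level-dependent trend removed. Its brightest probesets gave 8.93 and 8.81, 7.79 and 7.37, and 7.49 and 6.72, all lower with the inhibitor. Hoxd12, with 1 probeset, gave 3.83 and 3.96. Hoxd13, with 2 bright probesets of 3, differed by 0.22 with 1 up and 1 down. The 10 probesets that name both Hoxd3 and Hoxd4 cannot be assigned to either. Of these, 7 were bright, with a median difference of -0.21 (SD 1.02) and 3 higher.

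Letters upstream of 4 HoxD genes are shown, chosen after their values were seen. The genes are the adjacent Hoxd8, Hoxd9 and Hoxd10, whose probesets lay mostly on 1 side, and Hoxd1, whose probesets were split. For each, the stretch shown lies upstream of the gene. Each stretch is the 250 bases before the start site in RefSeq, build GRCm38.p6, plus strand, 5′ to 3′. Capitals mark AATC, the core of the sites that Gfi1 proteins bind, or GATT, the same letters on the other strand. They lie at chr2:74704365-74704614 for Hoxd8, chr2:74697513-74697762 for Hoxd9, chr2:74691641-74691890 for Hoxd10 and chr2:74762730-74762979 for Hoxd1.
Hoxd8: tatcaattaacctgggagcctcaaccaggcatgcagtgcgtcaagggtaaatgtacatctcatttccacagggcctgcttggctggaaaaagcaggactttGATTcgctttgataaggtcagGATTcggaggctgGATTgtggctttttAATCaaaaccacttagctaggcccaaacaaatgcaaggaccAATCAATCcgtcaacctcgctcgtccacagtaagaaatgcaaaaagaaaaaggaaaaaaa
Hoxd9: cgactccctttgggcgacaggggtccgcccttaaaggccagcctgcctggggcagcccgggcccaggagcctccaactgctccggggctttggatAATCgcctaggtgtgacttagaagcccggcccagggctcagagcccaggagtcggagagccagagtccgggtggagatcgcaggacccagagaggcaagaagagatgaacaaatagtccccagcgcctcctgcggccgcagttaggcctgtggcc
Hoxd10: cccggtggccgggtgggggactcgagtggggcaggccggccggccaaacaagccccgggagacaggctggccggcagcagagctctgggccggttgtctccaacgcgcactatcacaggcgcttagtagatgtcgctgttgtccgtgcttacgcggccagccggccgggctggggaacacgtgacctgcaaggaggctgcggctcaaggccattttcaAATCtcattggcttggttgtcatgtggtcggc
Hoxd1: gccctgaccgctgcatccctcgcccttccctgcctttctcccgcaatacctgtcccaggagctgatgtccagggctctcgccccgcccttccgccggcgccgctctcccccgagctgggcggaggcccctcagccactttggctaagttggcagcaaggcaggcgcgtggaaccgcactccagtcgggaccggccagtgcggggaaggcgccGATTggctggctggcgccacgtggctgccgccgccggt
The Hoxd8 window held 6 matches of this core, and the windows of Hoxd9, Hoxd10 and Hoxd1 held 1 each. Counting 1 promoter per gene, the first that the RefSeq table lists, 69.8% of 27025 promoters of this length held at least 1, with a mean of 1.38. These are called all promoters here, although 1 chromosome without a Hox cluster was left out. Of the 22 listed Hox genes with a RefSeq promoter, 15 held at least 1 (68.2%). The longer string AAATCA stood in 12.7% of all promoters and in 1 of the 22, that of Hoxd3. GATA, searched on both strands like the others, stood in 54.1% of all promoters and in 11 of the 22, with 2 matches for Hoxd8, 1 each for Hoxd9 and Hoxd10 and 0 for Hoxd1. The string TGATNNAT of joint Pbx and Hox sites stood in 7.91% of all and in 3 of the 22, none of them among the 4 shown, so no capital above overlaps it. The share of G and C was 44.4% for Hoxd8, 65.2% for Hoxd9, 65.6% for Hoxd10 and 71.6% for Hoxd1, beside a median of 52% over all promoters. A match is a string of letters and no bound site, and a link between matches and differences was not tested.

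**Figure D2:**
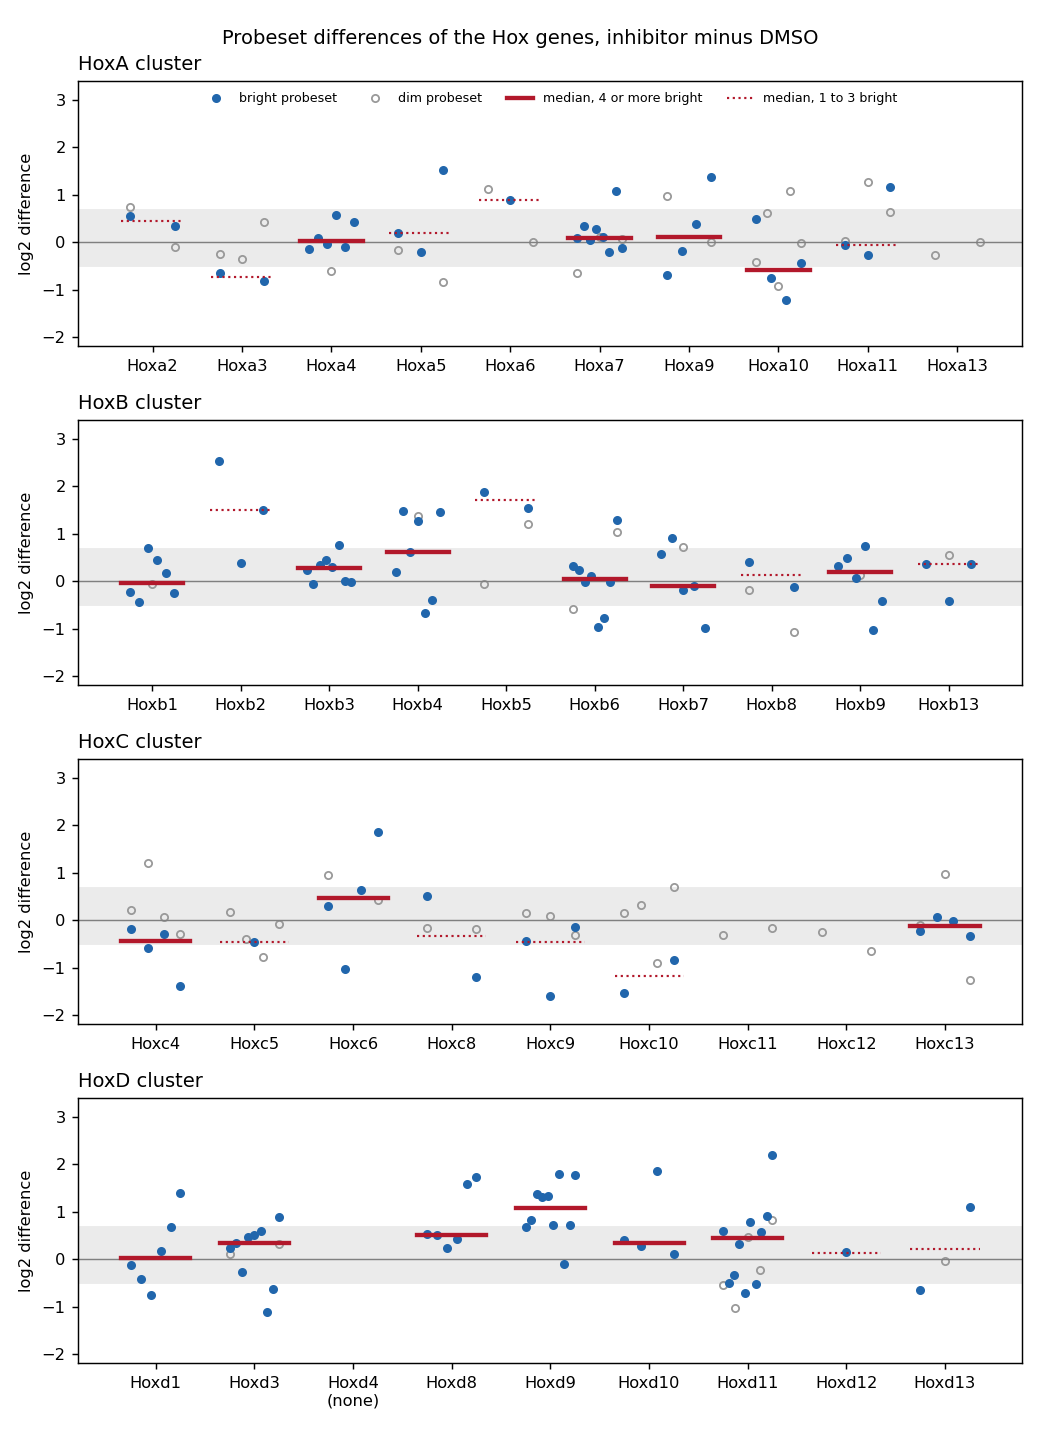
Each point is 1 probeset of a Hox gene, placed by its log2 difference, inhibitor minus DMSO, with filled points for bright and open points for dim probesets. Genes stand in paralog order in each cluster, red lines are gene medians (dotted for 1 to 3 bright probesets), and the grey band is the central 90% of all measured genes, -0.50 to 0.68. In Hoxd9, 9 of 10 filled points lie above 0, while those of Hoxd1 and Hoxb6 are split evenly.

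In HoxB, the larger differences stood at Hoxb2, Hoxb4 and Hoxb5, in the low-numbered part of the cluster that retinoic acid is known to induce. Hoxb1, in the same part, was at -0.03, and a role of retinoic acid was not tested. Hoxb4, known for expanding blood stem cells when overexpressed, was the measured HoxB gene with the largest difference, 0.61 (SD 0.89, levels 3.66 and 4.62). Its bright probesets gave 8.43 and 8.62, 6.31 and 7.79, 5.41 and 6.02, 3.34 and 4.62, 3.66 and 2.99, 3.47 and 3.08, and 2.47 and 3.92. The inhibitor value was higher in 5 of the 7, the 4 brightest included. With its dim probeset kept the difference was 0.94. Hoxb3, whose RefSeq span holds Hoxb4, differed by 0.27 (SD 0.28, levels 5.30 and 5.68), with 6 of 8 probesets higher. Its brightest probeset gave 11.73 and 11.96.

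Hoxb2 and Hoxb5 had too few bright probesets to count as measured. Hoxb2, a hindbrain patterning gene, had 3 probesets, all bright, with 4.54 and 7.08, 5.45 and 5.85, and 3.38 and 4.89. All lay higher with the inhibitor, by 1.501 in the median (2.83-fold, SD 1.07). Hoxb5, a marker gene of long-term blood stem cells in adult bone marrow, had 2 bright probesets of 4, with 5.37 and 7.26, and 4.56 and 6.11, a median of 1.72 (3.29-fold, SD 0.24). Its dim probesets gave 2.25 and 2.19, and 1.32 and 2.52. Both genes were past 2-fold when at least 1 bright probeset was enough. Under that rule 34 Hox genes were counted, with 3 higher (Hoxb2, Hoxb5 and Hoxd9) and 1 lower (Hoxc10), beside 3.14% and 2.15% of all 20424 genes counted in this way.

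Hoxb1, Hoxb13 and the genes from Hoxb6 to Hoxb9 were closer to 0 than Hoxb2, Hoxb4 and Hoxb5. Hoxb6 differed by 0.05 (SD 0.70, 4 of 8 probesets higher), Hoxb7 by -0.10 (SD 0.74, 2 of 5 higher) and Hoxb9 by 0.19 (SD 0.65, 4 of 6 higher). Hoxb8, with 2 bright probesets, gave 9.07 and 9.47 in the brighter and 3.61 and 3.48 in the other. Hoxb1, the measured HoxB gene with the smallest difference, was at -0.03 (SD 0.44, levels 3.76 and 4.07), and Hoxb13 at 0.37 over 3 bright probesets. Over Hoxb2 to Hoxb5, 16 of 20 bright probesets were higher with the inhibitor (median 0.42), and over Hoxb6 to Hoxb9, 11 of 21 were (median 0.06). These stretches were drawn after the values were seen and leave out Hoxb1 and Hoxb13.

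**Figure D3:**
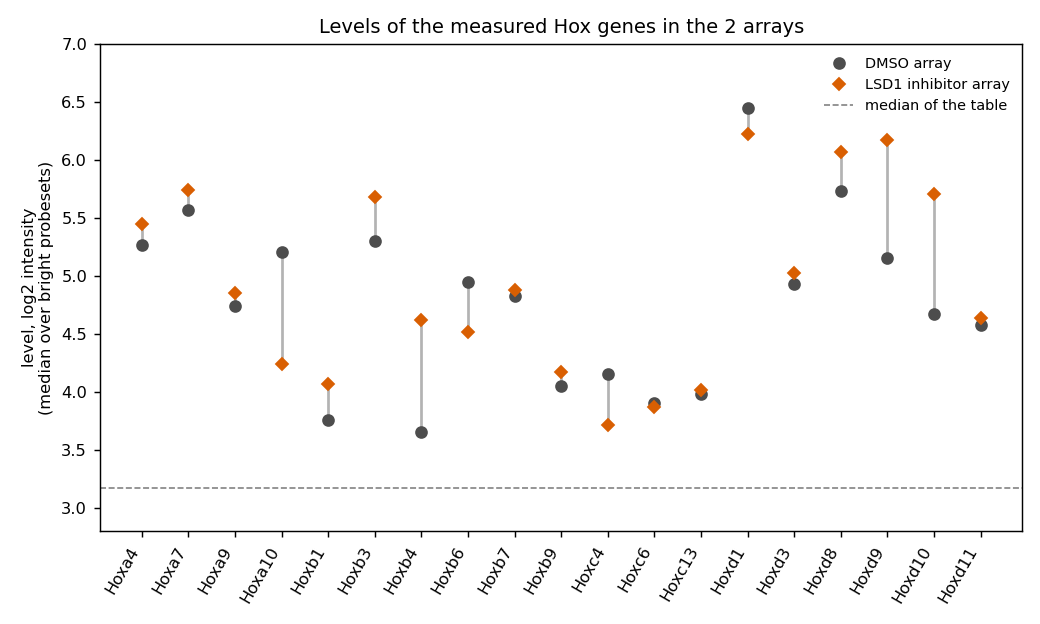
For each of the 19 measured Hox genes, a circle gives the level in the DMSO array and a diamond that in the inhibitor array, as the median log2 intensity over its bright probesets, above the dashed line at the table's median of 3.17. Hoxd9, Hoxd10 and Hoxb4 have the inhibitor level well above the DMSO level, and Hoxa10 has it well below. As medians of probeset differences, Hoxd10 was at only 0.34, Hoxb4 at 0.61 and Hoxa10 at -0.59. The gap of Hoxd10 rests mainly on 1 probeset, with 4.04 and 5.90.

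HoxA, the cluster best known in blood progenitors and leukaemia, held 4 measured genes, of which Hoxa10 had a difference larger than 0.5 in size and the others lay between 0.03 and 0.11. Hoxa9, which with Meis1 drives self-renewal of myeloid progenitors, differed by 0.11 (SD 0.88, levels 4.74 and 4.85). Its bright probesets gave 6.13 and 5.43, 5.36 and 5.18, 4.13 and 4.52, and 3.02 and 4.39, so the brighter ones were lower and the dimmer ones higher with the inhibitor. The last of these pairs was bright in the inhibitor array alone, and the sign of the difference depends on it. Hoxa7 differed by 0.10 (SD 0.40, levels 5.57 and 5.74), with 6 of 8 probesets higher. Hoxa4 was the HoxA gene nearest to 0, at 0.03 (SD 0.30), with 3 of 6 probesets higher and 8.98 and 8.83 in its brightest. It turned to -0.06 with a level-dependent trend removed.

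Hoxa10, a posterior gene known for expanding blood progenitors when overexpressed, had the largest difference downward among measured Hox genes, -0.59 (SD 0.72, levels 5.21 and 4.24). Its bright probesets gave 6.68 and 7.16, 5.43 and 4.68, 4.99 and 3.76, and 4.23 and 3.81. The brightest was higher with the inhibitor and the other 3 were lower. It was past the size rule at 1.5-fold but not at 2-fold. Among the HoxA genes with 1 to 3 bright probesets, Hoxa3 was at -0.74 over 2 probesets, both lower (4.11 and 3.46, and 4.16 and 3.33). Hoxa6 was at 0.90 over 1 probeset (3.70 and 4.60), Hoxa2 at 0.46 over 2, both higher, Hoxa5 at 0.19 over 3 and Hoxa11 at -0.06 over 3. Neither probeset of Hoxa13 was bright, and its level over all probesets was 1.65 with DMSO and 1.52 with the inhibitor.

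HoxC had the smallest share of bright probesets, and most of its values lay below 0. Hoxc4 had 4 bright probesets, all lower with the inhibitor, at 5.63 and 5.45, 4.33 and 3.75, 3.98 and 3.68, and 3.93 and 2.54. Its difference was -0.44 (SD 0.55), and its dim probesets were mixed, with 3 higher. Hoxc13 differed by -0.11 (SD 0.18, levels 3.98 and 4.02), and 7.82 and 7.60 stood in its brightest probeset. Hoxc6 went the other way, with 0.47 (SD 1.197) and 3 of 4 bright probesets higher, although its brightest pairs were 4.85 and 5.15, and 5.07 and 4.02.

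The remaining HoxC genes rest on few values. Hoxc10 was at -1.18 over 2 bright probesets, 4.37 and 2.85, and 3.26 and 2.41, and both inhibitor values lay below the table's median. Over its 6 probesets the median difference was -0.34, with 3 higher. Hoxc9 was at -0.45 over 3 bright probesets, all lower (4.83 and 4.38, 4.46 and 2.87, and 3.51 and 3.37), Hoxc5 at -0.46 over 1 and Hoxc8 at -0.34 over 2, of which 1 was higher. Neither Hoxc11 nor Hoxc12 had a bright probeset. Their levels over all probesets were 1.40 and 1.16 for Hoxc11 and 2.92 and 2.48 for Hoxc12, so no expression could be told from background.

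Set side by side by paralog number, members shared a side in some groups and not in others. In group 2, Hoxb2, over 3 probesets, was at 1.501 and Hoxa2, over 2, at 0.46. In group 6, Hoxa6, over 1 probeset, was at 0.90, Hoxc6 at 0.47 and Hoxb6 at 0.05, which was -0.01 with even-ranked probesets alone. In group 9, Hoxd9 was at 1.07, Hoxb9 at 0.19, Hoxa9 at 0.11 and Hoxc9, over 3 probesets, at -0.45. In group 10, Hoxd10 was at 0.34, Hoxa10 at -0.59 and Hoxc10, over 2 probesets, at -1.18. In group 4, Hoxb4 was at 0.61, Hoxa4 at 0.03 and Hoxc4 at -0.44. In group 3, Hoxd3 was at 0.33, Hoxb3 at 0.27 and Hoxa3, over 2 probesets, at -0.74. The measured genes with paralog numbers 1 to 3 had a median of 0.15 over 4 genes, those with 4 to 8 a median of 0.07 over 8 and those with 9 to 13 a median of 0.19 over 7, so the paralog number did not order the differences. Paralogs share much of their homeobox sequence, and how far a probeset binds a paralog's RNA was not tested.

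The span of a Hox gene can hold another, which limits how a probeset is assigned. In the RefSeq table, 10 of the listed genes overlap another in 6 pairs. Hoxa3 spans Hoxa4, Hoxa5 and Hoxa6, Hoxb3 spans Hoxb4, Hoxd3 spans Hoxd4, and Hoxd10 overlaps Hoxd11. Antisense and other transcripts of the clusters were little covered: of 9 listed, only Hoxaas3 was measured, at -0.09 (levels 3.93 and 4.22).

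The genes around Hox function were mostly close to 0 as well. None of 8 measured TALE cofactors, the Pbx, Meis and Pknox proteins that bind DNA with Hox proteins, was past the size rule, and their median was 0.03. The largest differences there were -0.37 for Meis2 (levels 4.75 and 4.62) and 0.21 for Pbx3 (6.24 and 6.57), and Meis1 was at 0.11. In the list of Cdx, ParaHox and Evx genes, relatives and neighbours of the Hox genes, none of 6 was past the rule (median -0.21), with Gsx1 at -0.59 and Evx1 at -0.32. Of the Cdx genes, which switch on Hox genes in blood-forming mesoderm, Cdx1 was at -0.14, and Cdx2 and Cdx4 had 2 bright probesets each and were not measured. Of 15 measured retinoic acid genes none was past the rule (median 0.12). The enzyme gene Cyp26a1, which breaks retinoic acid down, was at 1.32 (SD 1.63, levels 3.57 and 4.47) with 4 of 6 probesets higher, short of 75%. The receptor gene Rara was at 0.78 (SD 0.58, levels 6.11 and 7.26), with 13 of 15 higher.

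Chromatin regulators of the Hox genes held a gene past the size rule on each side. Of all measured genes, 1.72% were past it upward and 0.563% downward. Among 10 trithorax-side regulators, 1 was lower and none higher, with a median of 0.06. The lower one was Mllt3, which encodes AF9, a chromatin reader of the elongation complex, at -1.40 (SD 1.13, levels 5.43 and 4.15), with 14 of 16 probesets lower. Kmt2a was at -0.25 (30 of 42 lower), Kdm6a, an H3K27 demethylase gene, at 0.42, and Men1, which encodes the MLL partner menin, at 0.26 with 9 of 9 probesets higher. Among 14 measured Polycomb genes, 1 was higher and none lower, with a median of 0.08. The higher one was Ezh1, an H3K27 methyltransferase gene, at 1.16 (SD 1.06, levels 4.58 and 5.68), with 16 of 19 probesets higher. Its paralog Ezh2 was at 0.10, and Cbx8 at 0.44. None of 12 genes that flank the clusters was past the rule (median 0.06), with Snx10 at 0.89 and Ttll6 at -0.58.

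**Figure D4:**
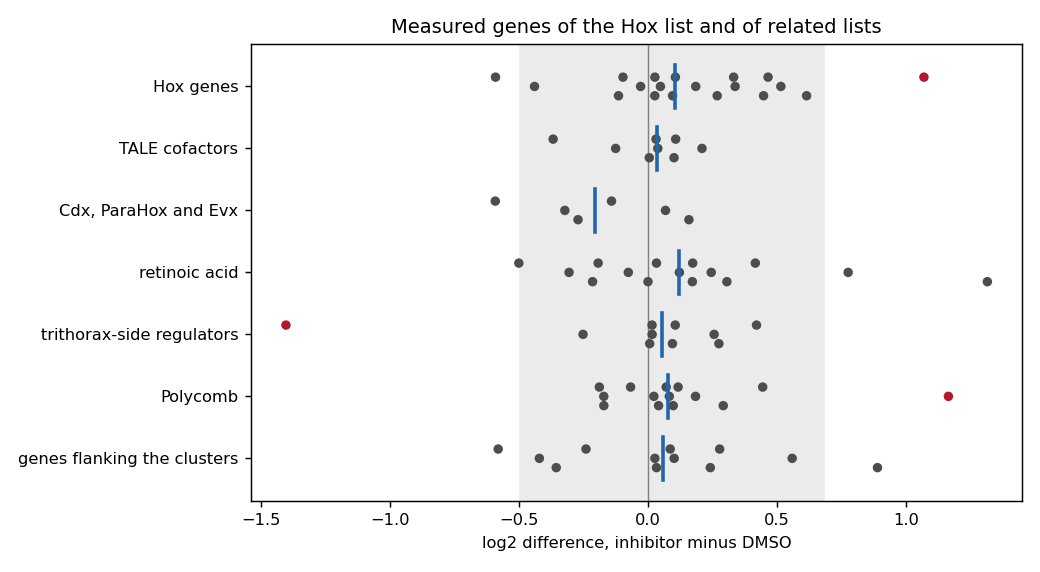
Each point is 1 measured gene of a list, placed by its log2 difference, inhibitor minus DMSO, with red for genes past the size rule and blue lines for list medians. The grey band is the central 90% of all measured genes, -0.50 to 0.68, and the median of every list shown lies inside it, with Hoxd9, Mllt3 and Ezh1 as the red points.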

How the data were processed

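The 2 arrays were grouped by their titles into DMSO and LSD1 inhibitor. Per the labels' protocols, biotin-labelled cDNA was hybridised to Affymetrix arrays. The authors deposited 1 log2 value per probeset and array (1048575 probesets). The log base was read from the range, 0.157 to 13.5, and for the summarisation, normalization and genome build the entry is: not given in the sources used here. At equal rank, the arrays were within 0.085 of each other. Names came from a platform annotation (270105 probesets with 1 symbol, 5737 with several), updated through RefSeq synonyms (17905 symbols current, 4167 updated, 61 kept). Values were used unscaled. The size rule (at least 4 bright probesets, 2-fold, 75% in the same direction) was tried on simulated data. The changes put in there were larger than 2-fold, so the trial does not cover genes near 2-fold, such as Hoxd9. The members and lists were chosen with earlier results of these data known. Named in full were Hox genes past the rule, and the 3 measured genes of each cluster with the largest and the 1 with the smallest absolute difference. From the lists of genes around Hox function, those past the rule and the 2 with the largest absolute difference were named. In the cell type lists, not every such gene was named. Others were named after their values were seen. Alternatives were median centring, quantile normalization, lowess (span 0.2), other filters, minimums, summaries and thresholds. Python 3.11.15, pandas 2.3.3, numpy 2.4.6, statsmodels 0.14.6 and matplotlib 3.10.9 were used.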

Additional observations from a re-analysis of the deposited data

How the results depend on the processing

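The count of Hox genes past the size rule upward, 1 of 19, was 0 with a level-dependent trend removed, 0 with odd-ranked probesets alone and 0 at 3-fold, 2 with no filter on dim probesets and 3 with at least 1 bright probeset. The count downward, 0, was 1 with at least 1 bright probeset (Hoxc10) and 1 at 1.5-fold (Hoxa10). In the other alternatives run both counts were as given. The median of the measured Hox genes, 0.11, was 0.30 with at least 8 bright probesets, which left 6 genes, and 0.23 with odd-ranked probesets, which left 7; over the rest it ran from 0.05 to 0.18. Hoxd9 stayed above 0 in 12 of 12 alternatives (0.83 to 1.33), Hoxd8 in 9 of 9 (0.44 to 0.84), Hoxb4 in 9 of 9 (0.40 to 0.94), and Hoxa10 stayed below 0 in 8 of 8 (-0.64 to -0.42). Hoxa4, Hoxb1, Hoxb6, Hoxb7, Hoxd1 and Hoxd11 turned sign in at least 1. The causes of these shifts were not tested. No paired analysis was possible because each condition had 1 array. The table has no detection calls, so dim values may be background, which bears most on HoxC.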

Other observations

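Homeobox genes outside the Hox clusters, a list of 40 put together after the data were seen, gave 30 measured genes. Of these, 2 were past the size rule upward and none downward, beside 1.72% and 0.563% of all measured genes. Their median was 0.15. Nkx2-3, a homeobox gene of spleen and gut vessels, was at 1.55 (SD 0.83, 5 of 6 probesets higher), with a DMSO level of 2.31 that lay below the table's median and an inhibitor level of 4.37. Emx2, a gene of forebrain and urogenital development, was at 1.41 (SD 0.59, levels 4.14 and 6.15), with 6 of 6 probesets higher. Hhex, which endothelial and blood precursors express, was at 0.98 (SD 0.36, levels 5.81 and 6.98) with 5 of 5 higher, and Prox1, the lymphatic endothelial regulator, at 0.85 (SD 0.42, levels 3.65 and 4.54) with 8 of 8 higher. Neither reached 2-fold. The largest difference downward was that of Irx4, at -0.58 (levels 4.03 and 3.20, 5 of 6 probesets lower).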
